A study of Mus musculus with 12 samples.

Results

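The genes described here are 5 subunits of the superoxide-producing NADPH oxidases and 2 Rac GTPases. They are Nox4, Cybb, Cyba, Ncf1, Ncf4, Rac1 and Rac2, 7 of the 19760 genes held by either of the study's count tables, chosen by gene name in both tables. RNA was sequenced from mice edited with CRISPR-Cas9 to be homozygous for either allele of rs3184504, a coding polymorphism in Sh2b3. The groups were Arg/Arg (major allele) whole kidney, Trp/Trp (minor allele) whole kidney, Arg/Arg renal F4/80+ cells and Trp/Trp renal F4/80+ cells, each with 3 biological replicates. All mice had received angiotensin II, a hormone that raises blood pressure, for 4 weeks, so every value below is from treated animals and no untreated group was analysed here. The sources used here do not give strain, sex, age or number of founder lines. The F4/80+ cells came from kidneys other than those used whole, by a Percoll gradient and magnetic beads against F4/80, a macrophage surface protein encoded by Adgre1.

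NADPH oxidases are membrane enzymes that pass electrons from NADPH to oxygen and so make superoxide or hydrogen peroxide. In phagocytes the catalytic subunit is gp91phox, the product of Cybb, which sits in the membrane with p22phox, the product of Cyba. This enzyme is silent until cytosolic subunits, among them the organiser Ncf1 and the adaptor Ncf4, and GTP-bound Rac, chiefly Rac2 in neutrophils, move to the membrane. Nox4, an isoform with high expression in kidney tubules, also needs Cyba but is active without the cytosolic subunits and without Rac, and releases mainly hydrogen peroxide. Rac1 is made in almost all cells and also controls the actin cytoskeleton, whereas Rac2 is largely restricted to blood cells. Angiotensin II is a long-known activator of these oxidases in the vessel wall and kidney.

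Start-site sequences are shown for the catalytic subunits and the organiser, since these 3 genes carry the contrast between the tubular and the phagocyte enzyme. Each is the RefSeq window of 270 bases on build GRCm38.p6 (mm10), from 250 bases before to 20 bases after the annotated start, written 5′ to 3′ on the gene's strand. Nox4 lies at chr7:87246399-87246668 on the plus strand, Cybb at chrX:9469305-9469574 on the minus strand and Ncf1 at chr5:134229606-134229875 on the minus strand. Capitals mark the only letters searched for, GGGCGG (a GC box, bound by Sp1 family factors) and GAGGAA (a core of sites of PU.1, a myeloid factor), on either strand.
Nox4: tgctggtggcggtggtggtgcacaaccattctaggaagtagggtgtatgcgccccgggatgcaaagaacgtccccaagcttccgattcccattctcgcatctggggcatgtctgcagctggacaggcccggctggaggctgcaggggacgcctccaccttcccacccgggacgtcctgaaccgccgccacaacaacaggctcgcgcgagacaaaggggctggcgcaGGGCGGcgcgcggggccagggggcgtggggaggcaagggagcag
Cybb: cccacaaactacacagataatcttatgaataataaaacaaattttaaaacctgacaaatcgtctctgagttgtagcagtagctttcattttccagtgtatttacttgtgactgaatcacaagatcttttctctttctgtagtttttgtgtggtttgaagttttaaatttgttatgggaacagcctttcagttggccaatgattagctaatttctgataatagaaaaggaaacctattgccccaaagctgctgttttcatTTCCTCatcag
Ncf1: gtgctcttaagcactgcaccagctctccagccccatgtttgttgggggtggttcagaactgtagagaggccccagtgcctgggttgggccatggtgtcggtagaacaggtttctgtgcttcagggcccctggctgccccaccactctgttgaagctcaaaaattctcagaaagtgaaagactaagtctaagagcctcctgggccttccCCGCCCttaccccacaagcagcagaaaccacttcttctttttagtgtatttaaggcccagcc
The Nox4 window was 67.4% G or C and held 1 GC box, starting 24 bases before the start site. The Cybb window was 34.1% G or C, held no GC box and had 1 PU.1 core, on the opposite strand and read here as TTCCTC, whose first base is base 10 counted from the start site. The Ncf1 window was 54.1% G or C with 1 GC box on the opposite strand, and the window of Cyba (chr8:122432921-122433190, minus strand, 60% G or C) held 2. Over 32851 RefSeq windows of this length the median was 52.6% G or C, 34.1% held the GC box and 25.1% held the PU.1 core, and a match describes the letters and is no evidence of binding. The table held 4 of the 7 genes and no entry for Ncf4, Rac1 or Rac2.

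By the coordinates in the files, which match the GENCODE M21 annotation of mm10, Nox4 spans 87246096 to 87398710 of chromosome 7 on the plus strand and Cybb 9435252 to 9487771 of chromosome X on the minus strand. The RefSeq windows of Nox4 and Cybb given above lie wholly inside these spans, so their RefSeq starts are not the starts of the GENCODE genes. Cyba spans 122424776 to 122432930 of chromosome 8 and Ncf1 134220053 to 134229625 of chromosome 5, both on the minus strand. Ncf4 (78244801 to 78262580, plus strand) and Rac2 (78559167 to 78572783, minus strand) are both on chromosome 15, and Rac1 spans 143503634 to 143528036 of chromosome 5 on the minus strand. Levels per kb use the union of exons of each gene in that annotation. Exons of Ncf1 overlap those of Gtf2ird2 and exons of Rac1 overlap those of Daglb, in both cases on the opposite strand. Whether the counting used strand is not given in the sources used here, so levels of Ncf1 and Rac1 are uncertain to that extent.

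Total counts were 19.6 to 54.7 M (mega) per kidney library and 35.9 to 51.6 M per F4/80+ library. Mitochondrially encoded genes took 7.86 to 9.35% of the former and 70.1 to 83.6% of the latter. The kidney counts cover 15361 genes, 15348 of them nuclear protein-coding, and the F4/80+ counts 18145 genes, 13845 of them nuclear protein-coding. These totals and shares are thus over unlike gene sets and cannot be set against each other directly. Levels are therefore given as CPM (counts per mega-count, scaled to the sum over the 13733 nuclear protein-coding genes that the tables share), which left 17.8 to 49.9 M counts per kidney library and 6.88 to 11.1 M per F4/80+ library. In the F4/80+ libraries Adgre1, the gene of the sorted protein, had a median of 6.46 CPM (1.26 to 16.7), against 6.34 CPM (4.12 to 8.33) in kidney. The summed level of 15 macrophage markers was 126 to 310 CPM in F4/80+ libraries and 240 to 385 CPM in kidney. The summed level of 16 proximal tubule markers was 21104 to 64148 CPM in F4/80+ libraries and 35867 to 42824 CPM in kidney. Of the 15 macrophage markers, edgeR called 4 higher in F4/80+ libraries than in kidney, Cd68 (log2 difference 1.24), Cd14 (1.08), Lyz2 (1.00) and Mrc1 (0.70), and 7 lower, among them Csf1r (-1.48), C1qa (-2.81) and Cx3cr1 (-1.74), where 26.4% and 37.1% of all genes were. Adgre1 itself was not called (0.16, adjusted p = 0.771 in edgeR). The markers were thus mixed in direction. In kidney Mertk (mean 83.5 CPM in Arg/Arg and 84.2 CPM in Trp/Trp) and Csf1r (61.3 and 64.7 CPM) gave most to the sum. In F4/80+ libraries Mertk (81.6 and 64.6 CPM) and Lyz2 (27.5 and 68.8 CPM) did. Since tubular transcripts were also abundant, these libraries are called F4/80+ libraries here and not macrophages. In bulk RNA, fewer cells of a type and less RNA per cell cannot be told apart.

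Per kilobase of exon, so that genes can be set side by side, the oxidase of these samples was by transcript level a Nox4 and Cyba one. In Arg/Arg kidney the mean level was 316 ± 10.2 CPM per kb for Cyba, 41.8 ± 1.35 for Rac1 and 41.3 ± 2.47 for Nox4 (SD, n = 3). The phagocyte genes were far below, at 1.36 ± 0.156 CPM per kb for Cybb, 0.928 ± 0.117 for Rac2, 0.583 ± 0.0338 for Ncf1 and 0.493 ± 0.160 for Ncf4. Rac1 and Nox4 overlapped in this order, as did Ncf1 and Ncf4, and the other neighbours did not. Trp/Trp kidney had the same top group, Cyba at 312 ± 21.2, Nox4 at 42.6 ± 2.80 and Rac1 at 42.2 ± 1.40 CPM per kb, with Nox4 and Rac1 again overlapping. Among the 4 lower genes every neighbouring pair overlapped there, from Cybb at 2.16 ± 0.499 to Ncf4 at 0.705 ± 0.297 CPM per kb.

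In the F4/80+ libraries Rac1 stood above Nox4 per kb without overlap, at 63.8 ± 3.65 against 34.7 ± 14.1 CPM per kb in Arg/Arg and 70.9 ± 5.11 against 17.0 ± 1.70 in Trp/Trp. Cyba had the highest mean in both genotypes, 174 ± 89.0 and 119 ± 58.0 CPM per kb, although in Trp/Trp its range overlapped that of Rac1. Cybb followed at 0.789 ± 0.988 and 1.80 ± 0.836 CPM per kb. Rac2 was the lowest of the 7 genes in Arg/Arg, at 0.0658 ± 0.0266 CPM per kb, and the fifth in Trp/Trp, at 0.848 ± 0.271. In both genotypes the genes from Cybb downward overlapped with their neighbours.

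**Figure D1:**
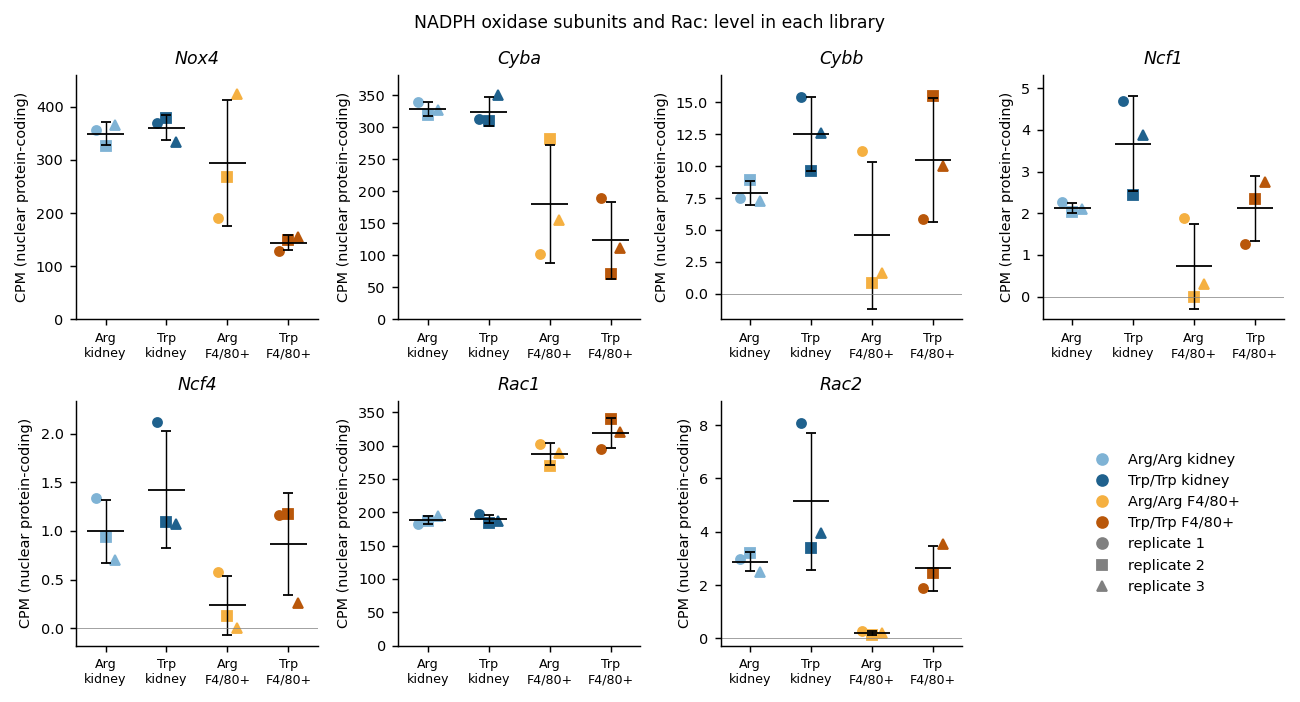
Level of each gene in every library, in CPM over nuclear protein-coding genes on linear axes that start near 0, by group; points are libraries and the bars give the mean and SD of 3. Nox4 was at 326 to 379 CPM in all 6 kidney libraries and at 128 to 424 CPM in the F4/80+ libraries, and Rac2 was below 0.3 CPM in the 3 Arg/Arg F4/80+ libraries.

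The first comparison asked whether the genotypes differed in whole kidney. The tubular isoform, its partner and the ubiquitous GTPase had overlapping levels in the genotypes, whereas 3 phagocyte genes, Cybb, Ncf1 and Rac2, had higher values in every Trp/Trp library than in any Arg/Arg library. None of the 7 genes passed the edgeR quasi-likelihood test after Benjamini-Hochberg adjustment over 14464 genes (adjusted p of 0.843 or more), and 0% of all genes passed. At an unadjusted p under 0.05, 3 of the 7 were higher in Trp/Trp and 0 lower, where 3.68% and 2.03% of all genes were. DESeq2 called 0 of the 7 and 15 of all genes (0.0977%).

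Nox4 was at 357, 326 and 366 CPM in Arg/Arg kidney and at 370, 379 and 334 CPM in Trp/Trp kidney. The groups overlapped, with means of 350 ± 20.9 and 361 ± 23.7 CPM (SD, n = 3) and an edgeR log2 difference, Trp/Trp minus Arg/Arg, of 0.03 ± 0.06 (SE; adjusted p = 0.970). Cyba, the membrane partner of both catalytic subunits, was at 340, 319 and 327 CPM against 314, 310 and 350 CPM. These also overlapped, with an edgeR log2 difference of -0.03 ± 0.07 (adjusted p = 0.964). Rac1 was at 183, 187 and 195 CPM against 197, 185 and 188 CPM, again overlapping, with an edgeR log2 difference of -0.01 ± 0.05 (adjusted p = 0.993).

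Cybb, the phagocyte catalytic subunit, was at 7.47, 8.93 and 7.27 CPM in Arg/Arg kidney and at 15.4, 9.60 and 12.6 CPM in Trp/Trp kidney. The groups did not overlap, and the edgeR log2 difference was 0.64 ± 0.17 (adjusted p = 0.843). The authors' deposited table gave 0.64 with a p of 0.000392 and an adjusted p of 0.168, where 0.103% of genes passed. Ncf1, whose product carries the cytosolic subunits to the membrane, was at 2.27, 2.02 and 2.11 CPM against 4.70, 2.43 and 3.89 CPM. These did not overlap either, with an edgeR log2 difference of 0.75 ± 0.25 (adjusted p = 0.843).

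Rac2, the GTPase of blood cells, was at 2.97, 3.19 and 2.48 CPM in Arg/Arg kidney and at 8.09, 3.40 and 3.94 CPM in Trp/Trp kidney. The groups did not overlap, and Trp/Trp replicate 1 was the highest library. The edgeR log2 difference was 0.81 ± 0.30 (adjusted p = 0.843) with that library and 0.33 (adjusted p = 0.960) without it. Ncf4, the adaptor that binds a membrane phosphoinositide, was at 1.34, 0.942 and 0.704 CPM against 2.12, 1.09 and 1.07 CPM, which overlapped. Its edgeR log2 difference of 0.51 ± 0.36 (adjusted p = 0.848) was 0.12 without Trp/Trp replicate 1. Without that library the log2 difference was 0.46 for Cybb and 0.52 for Ncf1.

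In all, 3 of the 7 genes had every Trp/Trp kidney library above every Arg/Arg kidney library, which held for 6.26% of the 13540 nuclear coding genes tested, and 0 of the 7 had the reverse, which held for 3.75%. Of the marker sums, only that of the macrophage markers did not overlap between the genotypes in kidney. Those of 3 T, NK and B cell markers (2.50 to 4.02 CPM in Arg/Arg, 4.00 to 9.57 CPM in Trp/Trp) overlapped. So did those of 2 monocyte markers (10.9 to 12.9 CPM and 12.6 to 21.6 CPM). The 15 macrophage markers summed to 252, 263 and 240 CPM in Arg/Arg kidney and to 385, 279 and 317 CPM in Trp/Trp kidney, with no marker at 0 in any of them. Of 16 macrophage markers tested in kidney, 15 had a positive difference, with a median of 0.56, and so had all 10 tested markers of T, NK and B cells, with a median of 1.06, against 0.00 for all genes. Trp/Trp replicate 1 was also the highest for fibroblast, pericyte and smooth muscle markers, 733 CPM against 342 to 372 in the other 5 kidney libraries. Of 13 neutrophil markers 4 were tested in kidney, and 1 of them, Lcn2, had a positive difference, with a median of -0.20. Csf3r and Lcn2, the 2 in both tables, summed to 3.16 to 4.05 CPM in Arg/Arg and 3.10 to 7.04 CPM in Trp/Trp kidney. The part of immune-cell content in the differences of Cybb, Ncf1 and Rac2 was not tested.

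The second comparison asked the same of the F4/80+ libraries. Nox4 had lower values and Rac2 higher values in every Trp/Trp library than in any Arg/Arg library, and the 3 Arg/Arg libraries differed widely among themselves. Of the 6 genes tested, 0 passed the edgeR test after adjustment over 15225 genes (adjusted p of 0.605 or more), and 0% of all genes passed. At an unadjusted p under 0.05 Nox4 was lower, where 3.61% of all genes were. Rac2 was higher at that level, where 4.43% of all genes were, but it entered the test only through the Trp/Trp libraries, so nothing is read from its being counted. DESeq2 called 0 of the 3 of these genes to which it gave an adjusted p, and 14 of all genes (0.226%).

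Nox4 was at 190, 269 and 424 CPM in Arg/Arg F4/80+ cells and at 128, 150 and 155 CPM in Trp/Trp F4/80+ cells. All Trp/Trp libraries were below all Arg/Arg libraries, which held for 3.06% of 12744 genes, and the Arg/Arg libraries were the more widely spread. The means were 294 ± 119 and 144 ± 14.4 CPM (SD, n = 3), with an edgeR log2 difference of -1.20 ± 0.33 (adjusted p = 0.605). Nox4 passed in the authors' deposited table, with a log2 difference of -1.24 and an adjusted p of 0.0493, where 0.368% of genes passed and 0.313% were lower in Trp/Trp. DESeq2 as run here gave the same log2 difference and the same unadjusted p (0.000166). Its adjusted p was 0.0562, above the threshold of 0.05, so that Nox4 was not called. The genes with an adjusted p were 6183 here and 5431 in the authors' comparison. Leaving out Arg/Arg replicate 3 brought the edgeR log2 difference to -0.80. Leaving out Arg/Arg replicate 1 brought it to -1.50, with the lowest adjusted p of the left-out fits, 0.0825 in edgeR.

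Cybb was at 11.2, 0.885 and 1.66 CPM in Arg/Arg F4/80+ cells and at 5.83, 15.5 and 9.98 CPM in Trp/Trp. The groups overlapped, since Arg/Arg replicate 1, with 77 counts, lay among the Trp/Trp libraries, while Arg/Arg replicates 2 and 3 had 7 and 17 counts. The edgeR log2 difference was 1.17 ± 0.66 (adjusted p = 0.673), 2.73 when Arg/Arg replicate 1 was left out and 0.70 when replicate 2 of that group was. Cyba was at 102, 283 and 156 CPM against 189, 70.3 and 112 CPM. These overlapped too, with an edgeR log2 difference of -0.69 ± 0.46 (adjusted p = 0.735), -1.22 without Trp/Trp replicate 1 and -0.17 without Arg/Arg replicate 2.

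Rac2 was at 0.291, 0.126 and 0.196 CPM in Arg/Arg F4/80+ cells, that is 2, 1 and 2 counts, and at 1.88, 2.47 and 3.54 CPM, or 21, 21 and 27 counts, in Trp/Trp. All Trp/Trp libraries were above all Arg/Arg libraries, which held for 7.88% of 12744 genes. The ratio of the pooled counts was 12.7, with an exact 95% interval of 5.17 to 40.2 that covers counting error only and not the spread between animals. The edgeR log2 difference was 3.48 ± 0.64 (adjusted p = 0.605), and the gene passed the filter on low counts only through the Trp/Trp libraries. The authors' deposited table gave a log2 difference of 3.54 with a p of 6.86e-05 and no adjusted p.

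Ncf1 was at 1.89, 0 and 0.294 CPM in Arg/Arg F4/80+ cells and at 1.26, 2.35 and 2.76 CPM in Trp/Trp. The groups overlapped through Arg/Arg replicate 1, and the edgeR log2 difference was 1.53 ± 0.84 (adjusted p = 0.663), 3.36 without that library. It passed the filter on low counts in 3 Trp/Trp libraries and 1 Arg/Arg library. No count was found in Arg/Arg replicate 2, which allows up to 0.379 CPM. Ncf4 was at 0.582, 0.126 and 0 CPM against 1.17, 1.17 and 0.263 CPM, with 30 counts over the 6 libraries, and was too low to be tested. Its pooled counts, 5 against 25, gave a ratio of 4.59 with an exact 95% interval of 1.72 to 15.3 for counting error only. Rac1 was at 302, 270 and 288 CPM in Arg/Arg and at 295, 340 and 321 CPM in Trp/Trp, overlapping, with an edgeR log2 difference of 0.02 ± 0.21 (adjusted p = 0.995).

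Of the 6 F4/80+ libraries, Arg/Arg replicates 2 and 3 had the highest Nox4 and the lowest Cybb, together with the highest proximal tubule and the lowest macrophage and distal nephron marker sums. The macrophage markers summed to 251, 139 and 126 CPM in Arg/Arg F4/80+ cells and to 206, 286 and 310 CPM in Trp/Trp. The proximal tubule markers summed to 32384, 64148 and 60996 CPM in Arg/Arg and to 38275, 21104 and 33702 CPM in Trp/Trp. The distal nephron and collecting duct markers went the other way from the proximal ones, at 14854, 6070 and 5851 CPM in Arg/Arg and 13415, 21341 and 12187 CPM in Trp/Trp. Arg/Arg replicate 1 had the lowest proximal tubule and the highest macrophage sum of its group, and the highest Cybb and Ncf1 and the lowest Nox4 of it. All 16 proximal tubule markers had a negative genotype difference, with a median of -0.92. All 12 distal markers (median 0.58) and 12 of 14 macrophage markers (median 1.19) had a positive one, against a median of 0.01 and 51.1% positive for all genes. Aif1 was at 0 in 1 Arg/Arg library, and no other macrophage marker and no tubular marker was at 0 in any F4/80+ library. Of the neutrophil list only Lcn2, which injured tubules also make, was tested here, at 6.54 ± 2.14 CPM in Arg/Arg and 16.7 ± 6.18 CPM in Trp/Trp (SD, n = 3), while Csf3r was at 0.269 ± 0.271 and 0.592 ± 0.384 CPM. The part of these cell types in the differences of Nox4, Cybb, Ncf1 and Rac2 was not tested.

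**Figure D2:**
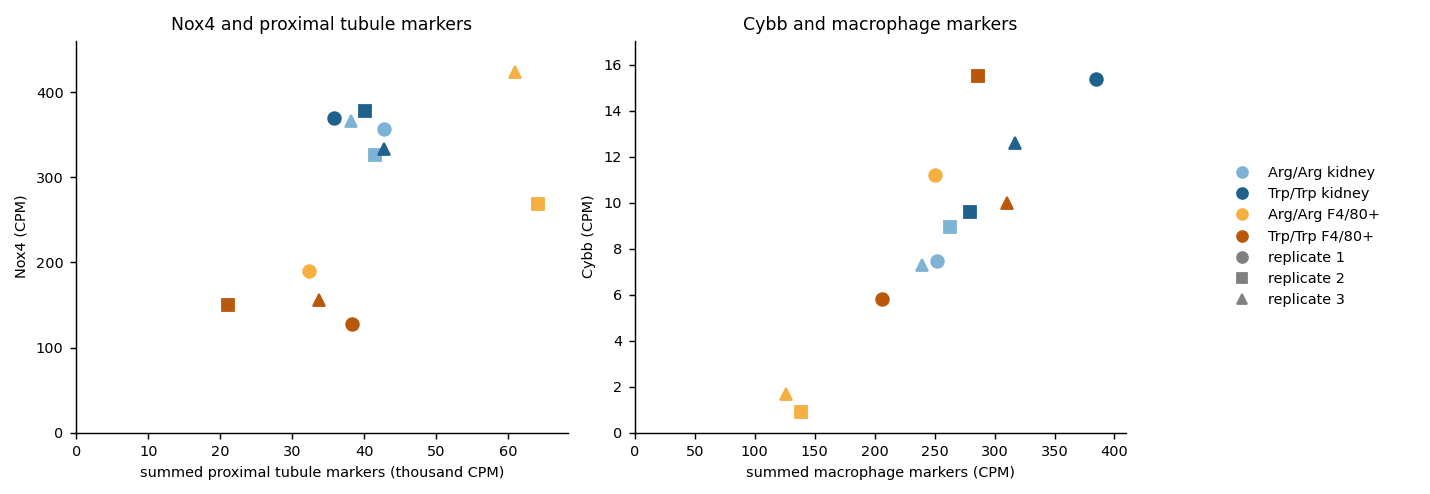
Nox4 against the summed proximal tubule markers and Cybb against the summed macrophage markers, both in CPM on linear axes, with 1 point per library and colours for the 4 groups. The kidney libraries form a tight group for Nox4 near 326 to 379 CPM, and Arg/Arg F4/80+ replicates 2 and 3 lie at the low end of both axes of the Cybb panel.

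A genotype difference that depended on sample type was tested as an interaction over all 12 libraries, the F4/80+ difference minus the kidney difference. None of the 7 genes passed the edgeR test (adjusted p of 0.771 or more), as was true of all genes (0%), and DESeq2 called 0 of the 7 and 0.051% of all genes. At an unadjusted p under 0.05, Rac2 was positive and Nox4 negative, where 4.04% and 2.28% of all genes were. On this scaling 67.1% of all genes had a positive interaction, with a median of 0.14, against a median of 0.01 with TMM scaling. The value of Rac2 rests on 2, 1 and 2 counts in the Arg/Arg F4/80+ libraries. The edgeR interaction was 2.82 ± 0.72 for Rac2 (adjusted p = 0.771) and -1.07 ± 0.31 for Nox4 (adjusted p = 0.771). The genotype differences are thus not shown to differ between kidney and F4/80+ cells. Without Arg/Arg F4/80+ replicate 1, Nox4 (-1.31, adjusted p = 0.0137) and Cybb (2.32, adjusted p = 0.0328) passed in edgeR, among 844 genes in all. With all 12 libraries 13578 genes were tested. Of the left-out fits only this one called any of the 7 genes, and it drops the Arg/Arg library that lay among the Trp/Trp libraries for Cybb.

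**Figure D3:**
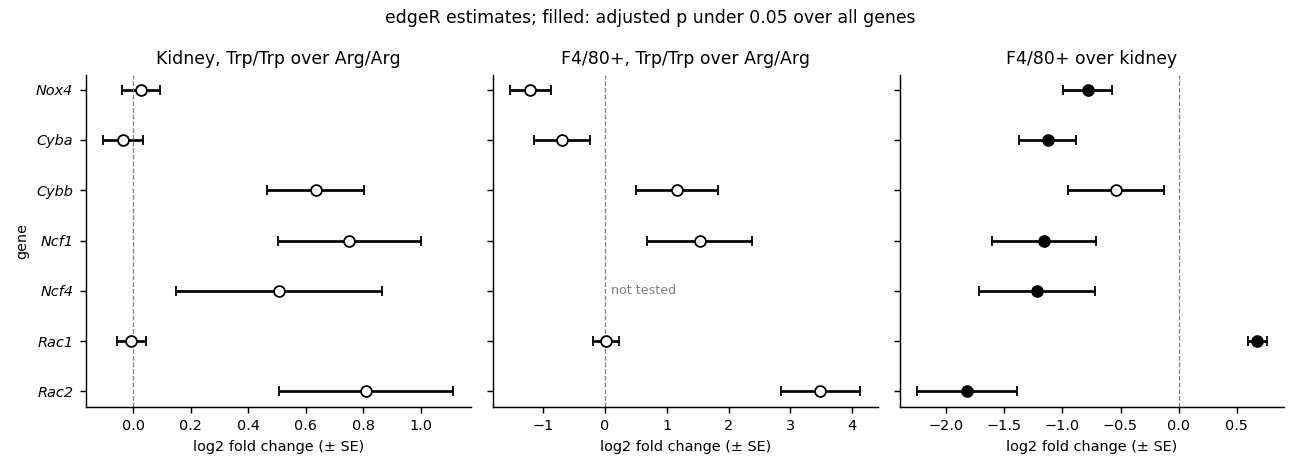
Log2 difference of each gene from edgeR with its SE, for genotype in kidney, genotype in F4/80+ cells (both Trp/Trp minus Arg/Arg) and F4/80+ minus kidney. The sample-type differences of 6 genes passed at an adjusted p under 0.05, the genotype differences of none did, and Ncf4 was not tested for genotype in F4/80+ cells.

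The third comparison set the F4/80+ libraries against whole kidney, with genotype in the model. Rac1 was higher in the F4/80+ libraries, and Nox4, Cyba, Ncf1, Ncf4 and Rac2 were lower, so that 4 of the 5 phagocyte-enzyme genes measured, Cyba included, fell in the cells sorted for a macrophage protein. The edgeR test called 6 of the 7 genes, 1 higher and 5 lower, where 26.4% of 13578 genes were called higher and 37.1% lower. With 63.6% of all genes called in either direction, a call by itself does not set these genes apart. The median difference of all genes was -0.13 on this scaling and 0.00 with TMM scaling, and the median of the 7 genes was -1.13.

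Nox4 ranged from 326 to 379 CPM in kidney (median 362, n = 6) and from 128 to 424 CPM in F4/80+ libraries (median 173, n = 6). The ranges overlapped through Arg/Arg replicate 3, and the edgeR log2 difference was -0.78 ± 0.21 (adjusted p = 0.00504). Cyba ranged from 310 to 350 CPM in kidney (median 323) and from 70.3 to 283 CPM in F4/80+ libraries (median 134). All 6 F4/80+ libraries were below all kidney libraries, as for 27.1% of all genes, with an edgeR log2 difference of -1.13 ± 0.25 (adjusted p = 0.00112). Rac1 ranged from 183 to 197 CPM in kidney (median 187) and from 270 to 340 CPM in F4/80+ libraries (median 298). All 6 F4/80+ libraries were above all kidney libraries, as for 15.1% of all genes, with an edgeR log2 difference of 0.68 ± 0.08 (adjusted p = 6.63e-06).

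Cybb ranged from 7.27 to 15.4 CPM in kidney (median 9.27) and from 0.885 to 15.5 CPM in F4/80+ libraries (median 7.91). The ranges overlapped, and the edgeR log2 difference of -0.54 ± 0.42 (adjusted p = 0.272) passed only without Arg/Arg F4/80+ replicate 1 (-1.03, adjusted p = 0.0359). Rac2 had medians of 3.29 CPM in kidney and 1.09 CPM in F4/80+ libraries, and an edgeR log2 difference of -1.82 ± 0.43 (adjusted p = 0.00191). Ncf1 had medians of 2.35 and 1.57 CPM, and an edgeR log2 difference of -1.16 ± 0.45 (adjusted p = 0.0352). That call was lost without any 1 of 7 libraries, which were Arg/Arg kidney replicates 1, 2 and 3, Trp/Trp kidney replicates 1 and 3, Arg/Arg F4/80+ replicate 3 and Trp/Trp F4/80+ replicate 1 (adjusted p of 0.0554 to 0.0754). Ncf4 had medians of 1.08 and 0.422 CPM, and an edgeR log2 difference of -1.22 ± 0.50 (adjusted p = 0.0463). It was lost with TMM scaling (adjusted p = 0.0574) and without any of Arg/Arg kidney replicates 1, 2 and 3, Trp/Trp kidney replicate 1, Arg/Arg F4/80+ replicates 2 and 3 and Trp/Trp F4/80+ replicate 3 (0.0551 to 0.111). By exact permutation of the 12 library labels for sample type, two-sided, where the smallest possible p was 0.00216, p was 0.00216 for Cyba and Rac1, 0.0173 for Nox4 and Rac2, 0.0476 for Ncf4, 0.0519 for Ncf1 and 0.242 for Cybb.

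The balance of the isoforms can be given within each library, as a ratio of levels per kb and with no test. Nox4 was 32.8, 25.03 and 34.5 times Cybb in Arg/Arg kidney and 16.5, 27.0 and 18.1 times in Trp/Trp kidney. In F4/80+ cells it was 11.6, 208 and 175 times Cybb in Arg/Arg and 15.04, 6.61 and 10.7 times in Trp/Trp. Nox4 thus exceeded Cybb per kb in all 12 libraries, the sorted cells included, and the 2 extreme ratios were those of Arg/Arg F4/80+ replicates 2 and 3. Cyba was 6.44 to 8.10 times the sum of Nox4 and Cybb in the kidney libraries and 2.98 to 11.3 times in the F4/80+ libraries. Rac1 was 42.4, 40.6 and 54.2 times Rac2 in Arg/Arg kidney and 16.8, 37.4 and 32.9 times in Trp/Trp kidney. In F4/80+ cells it was 717, 1472 and 1017 times Rac2 in Arg/Arg and 108, 95.2 and 62.4 times in Trp/Trp, where the Arg/Arg ratios rest on 1 or 2 counts of Rac2.

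**Figure D4:**
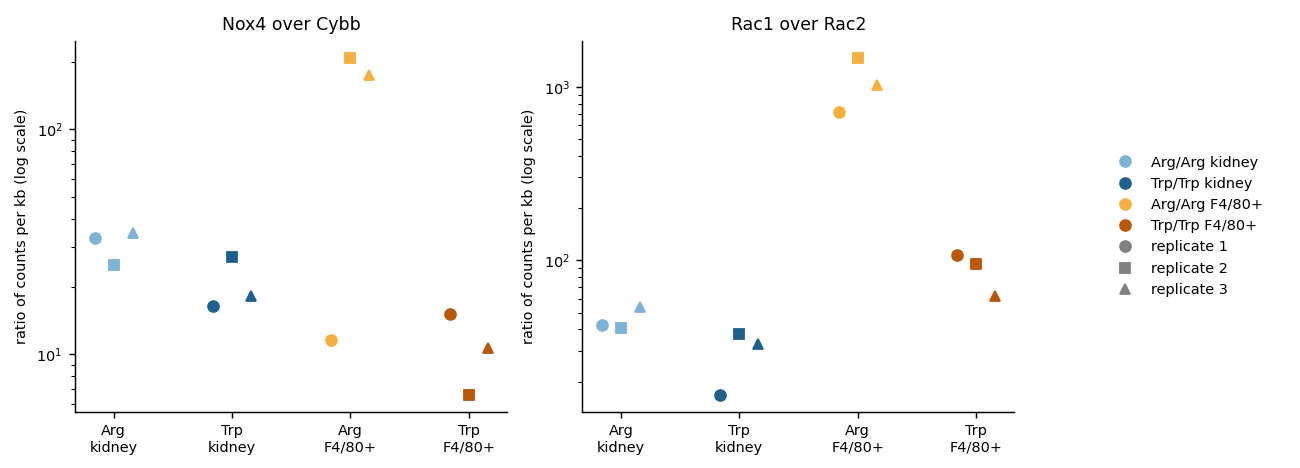
Ratio of Nox4 to Cybb and of Rac1 to Rac2 per kb of exon in each library, on log axes, by group. All ratios are above 1, and Arg/Arg F4/80+ replicate 1 lies near the Trp/Trp libraries for Nox4 to Cybb (11.6) but not for Rac1 to Rac2 (717).

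The other genes of the pathway were read from lists. Of 14 other oxidase genes, 8 were tested in kidney and 0 passed for genotype in edgeR (0 at an unadjusted p under 0.05), with 6 positive and a median of 0.18, where 50.6% of all genes were positive with a median of 0.00. Nox1, Nox3, Duox2 and Noxa1 had no row in either table. Against kidney, all 6 listed genes tested fell in F4/80+ libraries, where 37.1% of all genes fell. They included Rac3, a GTPase close to Rac1 (edgeR log2 difference -2.97 ± 0.24), Hvcn1, the proton channel that compensates oxidase charge (-1.84 ± 0.29), Poldip2, a Nox4 activator (-0.91 ± 0.08), and Cybc1, a chaperone needed for the Cybb protein (-0.76 ± 0.18).

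Of 23 activators and inhibitors of Rac, 0 passed for genotype in either sample type in edgeR. In kidney 3 were higher at an unadjusted p under 0.05, where 3.68% of all genes were, with 18 of 23 positive (50.6% of all genes) and a median of 0.08 (0.00). These were Dock10 (0.48 ± 0.15), Dock2 (0.78 ± 0.28) and Prex1 (0.29 ± 0.13), exchange factors that load Rac or its relatives with GTP, Dock2 and Prex1 being known from blood cells. In F4/80+ cells 21 were tested, and at an unadjusted p under 0.05, 5 were higher, among them Prex1 (1.38 ± 0.39), and 1 was lower, Arhgap15 (-1.33 ± 0.49), which turns Rac off, where 4.43% and 3.61% of all genes were. Against kidney, 2 of 23 rose and 10 fell in the F4/80+ libraries, where 26.4% and 37.1% of all genes did, so the share that fell is near the background. Among them were the exchange factors Prex2 (1.30 ± 0.10), Arhgef7 (-1.19 ± 0.10) and Vav2 (-1.19 ± 0.16) and the Rac-binding inhibitor Arhgdia (-0.99 ± 0.14).

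Of 13 kinases that phosphorylate the organiser or act upstream of it, 0 passed for genotype in edgeR in kidney (1 higher at an unadjusted p under 0.05, Pik3cd, 0.59 ± 0.20) or among the 10 tested in F4/80+ cells (Akt1 higher, 0.57 ± 0.24, and Pak1 lower, -0.68 ± 0.27). The shares of all genes at that level were 3.68% higher in kidney, and 4.43% higher and 3.61% lower in F4/80+ cells. Against kidney, 1 rose and 9 fell, where 26.4% and 37.1% of all genes did, the 4 of smallest p being Src (-2.66 ± 0.12), Akt1 (-1.69 ± 0.14), Prkcz (-1.02 ± 0.11) and Pik3cd (-2.26 ± 0.28). Of 13 enzymes that remove superoxide or peroxide, 0 passed for genotype in edgeR in kidney or F4/80+ cells, and 0 were at an unadjusted p under 0.05 in either. In F4/80+ cells 12 of these 13 had a negative difference, with a median of -0.38, where 51.1% of all genes were positive with a median of 0.01. The proximal tubule markers had negative differences in the same comparison (16 of 16, median -0.92), and their part in it was not tested. Against kidney, 2 rose and 4 fell, where 26.4% and 37.1% of all genes did, led by Gpx4, which reduces lipid peroxides (-2.42 ± 0.19), Gpx3, the plasma glutathione peroxidase made in proximal tubules (-1.65 ± 0.23), Prdx2 (0.67 ± 0.11) and Prdx4 (-0.60 ± 0.13).

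The genes most like each catalytic subunit across libraries were ranked by Pearson's r of log2(CPM + 0.5) over the 6 libraries of a sample type, among 9741 genes in kidney and 9245 in F4/80+ cells with a mean of at least 10 CPM. In kidney those nearest to Nox4 were Spp2 (r = 0.983), C2, Mapk1ip1, Slc16a10 and Rdh11 (0.969), and those nearest to Cybb were Cx3cl1 (0.988), Ddx55, Prr12, Rnf126 and Ifnar2 (0.972). In F4/80+ cells those nearest to Nox4 were Mfsd1 (0.997), Slc30a1, Abhd5, Il5ra and Itgb8 (0.991), and those nearest to Cybb were Exoc6b (0.998), Nr3c2, Ampd3, Sim1 and Mitf (0.995). None of these genes was named for both subunits or in both sample types. With 6 points that share libraries, and so many genes ranked, such values are a description.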

How the data were processed

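Polyadenylated RNA of 12 libraries was measured, in 4 groups of 3 taken from the labels. Per the submitters' processing notes, the tools were STAR, DRAGEN and DESeq2 and the build mm10; no version is listed. The authors deposited raw counts per gene in a table per sample type (whole numbers, unequal totals). Their deposited log2 fold change, p-value and adjusted p-value are quoted as theirs, the fold change turned to Trp/Trp over Arg/Arg by its sign against the counts.

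The 7 genes and all lists were chosen with earlier results of these data known. Each table was fitted whole in R 4.3.3 with edgeR 4.0.16 (filterByExpr, minimum count 10 in 3 libraries, minimum total 15; TMM; quasi-likelihood test; Benjamini-Hochberg, threshold 0.05). Sample type and interaction were fitted on the shared nuclear protein-coding genes, scaled by their total. The SE is the log2 difference over the square root of F. DESeq2 1.42.0, normalization, filter, replicate block and left-out replicates were alternatives. All 7 genes were named, up to 4 genes of smallest p per pathway list were eligible, and the 5 most alike for Nox4 and Cybb. The common coefficient of variation was 0.101 in kidney and 0.28 in F4/80+ cells. Tested on simulated data, edgeR recovered 94% of 2-fold changes in kidney (14394 genes) and 17.9% in F4/80+ cells (14882 genes). The changes were planted only in genes with higher mean counts than Rac2, Ncf1 and Ncf4 have in F4/80+ cells, so recovery at such low counts was not tested. Intervals and count limits cover counting error only. Replicates are labelled biological, and whether each is 1 mouse is not given in the sources used here.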

Additional observations from a re-analysis of the deposited data

How the results depend on the processing

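The alternatives left the count of these 7 genes that passed unchanged for genotype in kidney and in F4/80+ cells (0), and at 4 to 7 for sample type. For the interaction, 0 genes passed except without Arg/Arg F4/80+ replicate 1, so that left-out replicates gave 0 to 2 of the 7. Signs turned only for differences near 0 that never passed. Rac1 in kidney was 0.0164 without normalization factors, and Rac1 in F4/80+ cells was -0.0195 in DESeq2. With left-out replicates Nox4 in kidney ranged from -0.0184 to 0.0670, Cyba in kidney from -0.11 to 0.00799, Rac1 in kidney from -0.0299 to 0.0146 and Rac1 in F4/80+ cells from -0.0510 to 0.0631, and the cause was not tested. For each gene, the deviation of each library from its group mean was taken. Between same-numbered libraries of the genotypes these deviations correlated at -0.13, 0.017 and -0.057 in kidney and at -0.366, -0.629 and 0.231 in F4/80+ cells. No pairing by replicate number was seen, but with 3 replicates per group this check cannot decide whether the samples were paired. With a replicate block 0, 0, 5 and 0 of the 7 genes passed for genotype in kidney, genotype in F4/80+ cells, sample type and interaction, Ncf1 (adjusted p = 0.0905 in edgeR) being lost for sample type. Without normalization factors the median of all genes for genotype in F4/80+ cells was 0.23, against 0.01. All 28 group levels moved by less than the spread between replicates with each table's own denominator. Depth limits Ncf4, Ncf1 and Rac2 in F4/80+ cells, where a library held 0 to 27 counts of each.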
